A study of Homo sapiens with 3 samples.

Results

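The syndecans and glypicans are the families of proteoglycans that carry heparan sulfate at the cell surface. Their 10 human genes, SDC1 to SDC4 and GPC1 to GPC6, were taken by gene identifier from a table of read counts for 58381 genes, and all 10 were found. The counts came from RNA-seq of T24 cells, a human bladder urothelial carcinoma line, with 1 library for each of 3 conditions. Ctrl cells were not irradiated. RT cells were control cells given ionizing radiation from a 137Cs source, at 10 Gy per the labels, and RT + shHDAC6 cells were irradiated at the same labelled dose and carried an shRNA against the deacetylase HDAC6. Per the labels the shRNA and a control pLKO.1 vector were brought in by lentivirus, followed by puromycin selection, which would make the cells selected pools of a single line. The study's results text instead calls the irradiated comparator parental cells. If so, transduction and selection cannot be told apart from HDAC6 knockdown in the comparison with RT. Among these 3 libraries HDAC6 knockdown occurs only in irradiated cells, and no unirradiated knockdown library was analysed here.

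A syndecan is a transmembrane protein with a short cytoplasmic tail, whereas a glypican is tied to the outer membrane by a lipid (GPI) anchor. Heparan sulfate chains are built on both in the Golgi, and through these chains the proteins hold growth factors, Wnt proteins, chemokines and matrix proteins near their receptors. Proteases shed the syndecan ectodomain, and the lipase NOTUM can release glypicans. SDC1 is the main syndecan of epithelia, SDC2 is typical of mesenchymal and endothelial cells, SDC3 of the nervous system, and SDC4 is widespread and found in focal adhesions. GPC1 is the most broadly expressed glypican of adult tissues, while GPC3 is best known from fetal tissue and liver cancer.

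With 1 library per condition the spread between replicates is unknown, so no test was made and no p-value is given. Ratios are log2 ratios of CPM (counts scaled to a common library size) after TMM scaling, a correction for differences in library composition, and the 95% intervals (exact binomial for ratios and shares, exact Poisson for levels) cover counting error only. Genes with at least 10 counts in either library of a pair were compared, and a gene was called higher or lower when the libraries differed at least 2-fold. Levels are TMM-scaled CPM per kb of exon, the scale used here to compare genes with each other. The libraries held between 35424086 and 41811165 counts, and a count of 0 allows up to 3 counts, which is between 0.0662 and 0.0894 CPM. Neither proteoglycan protein nor heparan sulfate chains were measured in these files. HDAC6 (ENSG00000094631, chromosome X, 48801377 to 48824982) was covered by 3098, 2383 and 2170 counts in the Ctrl, RT and RT + shHDAC6 libraries. With the shRNA its RNA stood at 87.2% of the RT level, a log2 fold change of -0.20 (interval -0.28 to -0.11), so the targeted transcript was lower but far from 2-fold lower. Of 12066 genes with at least 100 counts in either library, 2958 had a lower ratio. The study reports lower HDAC6 mRNA by qPCR and lower protein by Western blot in its knockdown cells. For the mRNA these counts give only the small difference above, from 1 library, and they cannot check the protein. The simple epithelial keratins KRT7, KRT8, KRT18 and KRT19 summed to between 294 and 401 CPM, but KRT7 was much lower in RT + shHDAC6 than in the other libraries. The uroplakins, which mark differentiated urothelium, were nearly absent, with 0 to 18 counts each for UPK1A, UPK1B, UPK2 and UPK3A. The urothelial regulators GATA3 and PPARG were present, with 709 to 2320 and 352 to 1298 counts.

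The sequences of 3 promoters are shown because their genes, SDC1, SDC4 and GPC1, were the members called higher in an irradiated library than in Ctrl after TMM scaling. Each is the 250 bases before the start of a transcript, from RefSeq on GRCh38.p14, read 5′ to 3′ on the strand of the gene. None of these 3 windows overlaps an annotated exon, unlike a second SDC1 window, which is not shown. They lie at chr2:20225476-20225725 on the minus strand for SDC1, chr20:45348425-45348674 on the minus strand for SDC4 and chr2:240435413-240435662 on the plus strand for GPC1. Capitals mark matches on either strand to the GC box GGGCGG, the motif bound by SP family factors.
SDC1: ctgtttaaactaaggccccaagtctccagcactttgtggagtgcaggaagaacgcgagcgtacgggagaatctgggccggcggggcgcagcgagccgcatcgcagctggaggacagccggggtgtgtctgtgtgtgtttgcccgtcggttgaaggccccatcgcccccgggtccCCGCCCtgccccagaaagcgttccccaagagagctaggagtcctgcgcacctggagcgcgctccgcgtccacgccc
SDC4: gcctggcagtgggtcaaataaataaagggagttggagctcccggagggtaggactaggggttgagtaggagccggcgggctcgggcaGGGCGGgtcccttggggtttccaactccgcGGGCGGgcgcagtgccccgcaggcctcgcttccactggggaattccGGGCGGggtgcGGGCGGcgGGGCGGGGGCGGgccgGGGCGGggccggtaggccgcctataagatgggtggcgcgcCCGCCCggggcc
GPC1: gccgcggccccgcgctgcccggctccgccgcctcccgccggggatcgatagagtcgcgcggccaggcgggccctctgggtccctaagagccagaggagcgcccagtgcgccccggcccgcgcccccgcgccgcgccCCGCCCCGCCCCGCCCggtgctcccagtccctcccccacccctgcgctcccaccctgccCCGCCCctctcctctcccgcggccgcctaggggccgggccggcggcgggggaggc
The GC box had 1 match before SDC1, 8 before SDC4 and 4 before GPC1, some of them overlapping or adjoining. Of 35116 RefSeq windows of this length, 42.6% held the motif. The windows were rich in G and C, at 66.4% for SDC1, 73.6% for SDC4 and 84.0% for GPC1 against a median of 58% over all windows. The TATA box TATAAA (10.7% of all windows), the CCAAT box (32.0%), the AP-1 motif TGANTCA (6.57%) and the E-box CACGTG (6.34%) had no match on either strand in these 3 windows. Over the 9 windows of the 8 members in the table, AP-1 and the E-box had 0 matches. Members not called higher held the GC box as well, with 5 matches before SDC3, 3 before GPC2, 2 before GPC4 and 2 before GPC5. The G and C content of these windows was 83.6%, 66.8%, 76% and 62.4%. Neither trait is thus particular to the 3 genes shown. The GPC6 window differed in composition, with 37.6% G and C, no GC box and 1 TATAAA match. It overlaps an annotated exon and is not shown. These matches describe letters in a window and were not tested for binding.

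Of the 10 members, SDC1 and SDC4 had the highest transcript levels in all 3 libraries. Per kb, SDC1 stood at 25.7 (interval 25.0 to 26.5) in Ctrl, 56.8 (55.5 to 58.2) in RT and 34.3 (33.2 to 35.3) in RT + shHDAC6. SDC4 stood at 29.6 (28.6 to 30.6), 55.8 (54.3 to 57.4) and 62.3 (60.7 to 64.0) in the same order. SDC4 was thus above SDC1 in Ctrl and in RT + shHDAC6, and their intervals overlapped in RT. The next members by level were SDC2 and GPC1, followed by SDC3, and the other glypicans lay below 1 on this scale in every library. In Ctrl the order was SDC4, SDC1, SDC2, GPC1, SDC3, GPC2, GPC6, GPC3, GPC4 and GPC5, where neighbours from GPC2 to GPC4 had overlapping intervals. In RT, SDC1 and SDC4 overlapped, as did SDC2 and GPC1, and GPC3 and GPC4. In RT + shHDAC6, GPC1 stood above SDC2, and neighbours among GPC2, GPC6, GPC4 and GPC3 overlapped.

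**Figure D1:**
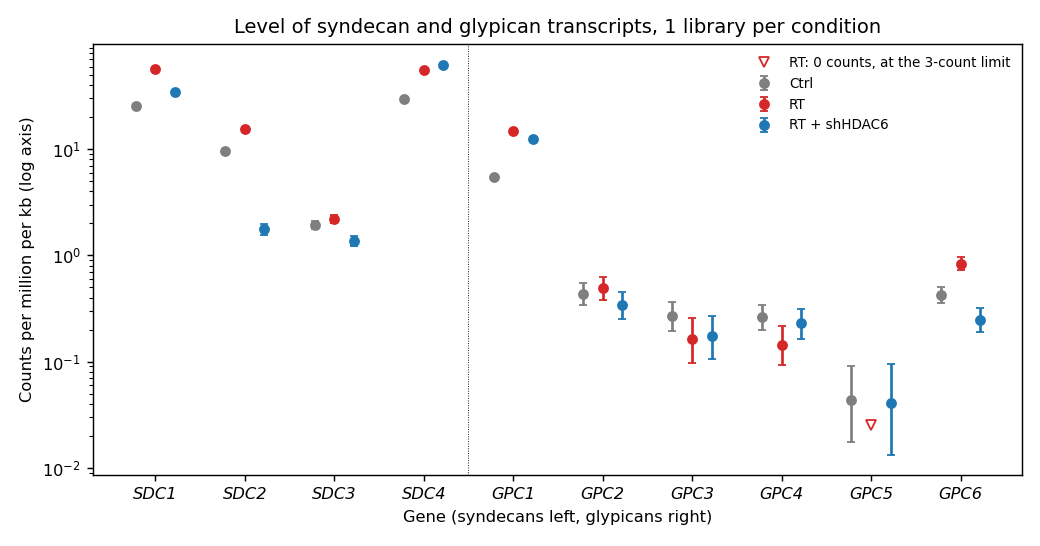
Level of each syndecan and glypican in CPM per kb of exon, on a log axis, with 1 point per library (grey Ctrl, red RT, blue RT + shHDAC6). Bars are 95% Poisson intervals for counting error, and the open triangle marks the 3-count limit for GPC5, which had 0 counts in RT. SDC2 stood at 9.58 in Ctrl, 15.6 in RT and 1.76 with the shRNA, the widest spread of the syndecans.

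After irradiation of control cells, SDC1, SDC2, SDC4 and GPC1, the 4 most abundant members, had higher levels under every scaling tried. SDC1 and GPC1 were called at least 2-fold higher in RT than in Ctrl, which is 2 of the 9 members compared (22.2%), beside 4.81% of all 20267 genes compared. No member was called lower, beside 9.17% of all genes, although GPC4 is called lower with library totals in place of TMM, at a log2 fold change of -1.08. The median log2 fold change of the 9 members was 0.71, against -0.062 over all genes compared. Weakly expressed genes have noisier ratios, and their calls leaned lower in RT. Over all genes compared, 975 were called higher and 1858 lower, against 537 and 278 among genes with at least 100 counts. Among the 12670 genes with at least 100 counts, 4.24% were called higher and 2.19% lower, and the median was 0.051. Of the members, 6 reach that count.

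SDC1 (ENSG00000115884, GRCh38 chromosome 2, 20200797 to 20225433) had 4216 counts in Ctrl and 6889 in RT. The RT library was 2.21-fold higher, a log2 fold change of 1.14 (interval 1.09 to 1.20), with 332 of the 12670 better counted genes above it. GPC1 (ENSG00000063660, chromosome 2, 240435663 to 240468076) had 1601 counts in Ctrl and 3215 in RT. It was 2.72-fold higher, a log2 fold change of 1.44 (interval 1.35 to 1.53), the largest of the members compared, and 104 of those better counted genes exceeded it. SDC4 (ENSG00000124145, chromosome 20, 45325288 to 45348424) had 3507 counts in Ctrl and 4892 in RT, for a log2 fold change of 0.92 (interval 0.85 to 0.98), just under the 2-fold line. SDC1 is no longer called with library totals in place of TMM, which lower every log2 fold change of this comparison by 0.22.

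SDC2 (ENSG00000169439) was also higher in RT, with 1775 counts in Ctrl and 2141 in RT and a log2 fold change of 0.71 (interval 0.61 to 0.80). SDC3 (ENSG00000162512, chromosome 1, 30869466 to 30908758) had 618 and 527 counts and a log2 fold change of 0.21 (interval 0.03 to 0.38) that was -0.01 with library totals. For SDC3 the direction therefore depends on the scaling. GPC6 (ENSG00000183098, chromosome 13, 93226807 to 94408020), a glypican whose loss causes a short-limb skeletal disorder, had 137 counts in Ctrl and 200 in RT. Its log2 fold change of 0.98 (interval 0.66 to 1.31) straddled the 2-fold line and became 1.04 with median-of-ratios scaling. An antisense long non-coding RNA shares 7.18% of the exon length of GPC6 and had 1, 1 and 0 counts in the 3 libraries, and the exons of the other members overlap no other gene.

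The remaining glypicans had few counts, and calls among weakly counted genes leaned lower in RT. GPC2 (ENSG00000213420, chromosome 7, 100169606 to 100177381), a glypican of the developing nervous system, had 76 counts in Ctrl and 63 in RT. Its log2 fold change of 0.16 (interval -0.34 to 0.67) was -0.05 with library totals, so no direction can be given. GPC3 (ENSG00000147257, chromosome X, 133535745 to 133987100) had 40 counts in Ctrl and 18 in RT, for a log2 fold change of -0.72 (interval -1.61 to 0.12). GPC4 (ENSG00000076716, chromosome X, 133300103 to 133415489), which lies next to GPC3 across a gap of 120 kb, had 59 and 24 counts and a log2 fold change of -0.86 (interval -1.61 to -0.16), past the 2-fold line only with library totals. GPC5 (ENSG00000179399, chromosome 13, 91398621 to 92873682), 353 kb from GPC6 on the same chromosome, had 7, 0 and 5 counts in the 3 libraries and was below the count minimum. The neighbours GPC3 and GPC4 both had lower values in RT, while GPC6 had a higher value and GPC5 was not compared.

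Markers of other cell types, and some epithelial markers, moved in the same direction as GPC3 and GPC4. All 13 markers of leukocytes, endothelium and fibroblasts were detected in every library. Summed, the fibroblast markers (PDGFRA, PDGFRB, DCN, LUM and COL1A1) gave 151, 104 and 121 CPM in Ctrl, RT and RT + shHDAC6, the endothelial markers 23.1, 14.5 and 19.2, and the leukocyte markers 3.97, 3.28 and 2.999. Of the 12 markers compared between RT and Ctrl, 11 had a log2 ratio below 0, with a median of -0.49 and a range of -0.79 to 0.34. Between RT + shHDAC6 and RT, 9 of 11 were above 0, with a median of 0.26 and a range of -0.54 to 0.57, and none was 2-fold apart in either comparison. The epithelial junction genes CDH1 and EPCAM were likewise below 0 for RT against Ctrl (median -0.47) and above 0 with the shRNA (median 0.37). All 4 urothelial genes compared were below 0 in RT, but with the shRNA only 1 of 3 was above 0. Of the 4 simple epithelial keratins, 2 were below 0 in RT and 2 above, and with the shRNA 3 were above 0 and 1 below. All libraries came from a single cell line, so these markers are not a measure of other cells in the culture. The source of their reads and their part in the values of GPC3 and GPC4 were not tested.

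In irradiated cells, SDC2 and GPC6 were called at least 2-fold lower with the shRNA against HDAC6. These are 2 of 9 members (22.2%), beside 4.78% of the 19013 genes compared. No member was called higher, beside 4.35% of all genes. The median log2 fold change of the members was -0.52, against -0.0032 over all genes compared. Among the 12066 genes with at least 100 counts in either library, 0.99% were called higher and 2.15% lower.

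For SDC2 the counts were 1775, 2141 and 251 in Ctrl, RT and RT + shHDAC6. RT + shHDAC6 thus stood far below both other libraries, at 11.2% of RT and 18.3% of Ctrl. The log2 ratio against RT was -3.15 (interval -3.35 to -2.97), and of 12066 genes with at least 100 counts in either library, 2 had a lower ratio. Under the other scalings it lay between -3.16 and -3.07. GPC6 had 137, 200 and 62 counts and in RT + shHDAC6 stood at 29.7% of RT, a log2 fold change of -1.75 (interval -2.19 to -1.33) with 74 of those genes lower. Both genes thus had their highest value in RT and their lowest in RT + shHDAC6. SDC3 and GPC2 had the same order after TMM scaling, though within 2-fold and with a direction in RT that depends on the scaling.

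Some epithelial markers were low in the same library as SDC2. KRT7 had 3533, 3854 and 597 counts in the 3 libraries, a log2 fold change of -2.75 with the shRNA, and 10 of the 12066 better counted genes were lower. KRT8, KRT18 and KRT19 did not share this, at 0.35, 0.05 and 0.39. Among urothelial regulators, GATA3 had -1.07, PPARG -0.95 and FOXA1 0.29, and the junction genes CDH1 and EPCAM had 0.23 and 0.51. Their part in the values of SDC2 and GPC6 was not tested.

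The other 3 syndecans all lay within 2-fold of RT. SDC1 had 4334 counts in RT + shHDAC6, 60.3% of its RT level, a log2 fold change of -0.73 (interval -0.79 to -0.68). In the study's qPCR, done at a lower dose than labelled here, SDC1 and SDC2 rose with radiation and the shRNA countered the rise. SDC3 had 338 counts and a log2 fold change of -0.70 (interval -0.90 to -0.50). SDC4 went the other way, with 5702 counts and a log2 fold change of 0.16 (interval 0.10 to 0.21). SDC4 was the only syndecan above its RT level in RT + shHDAC6, and under the other scalings its log2 ratio was between 0.15 and 0.24.

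GPC1 had 2844 counts in RT + shHDAC6, a log2 fold change of -0.24 (interval -0.31 to -0.17) against RT. The intervals of the weakly counted glypicans all covered 0 in this comparison. GPC2 had 46 counts and a log2 fold change of -0.52 (interval -1.10 to 0.06). GPC3 had 20 counts and 0.09 (interval -0.90 to 1.09), and GPC4 had 40 counts and 0.67 (interval -0.09 to 1.47).

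**Figure D2:**
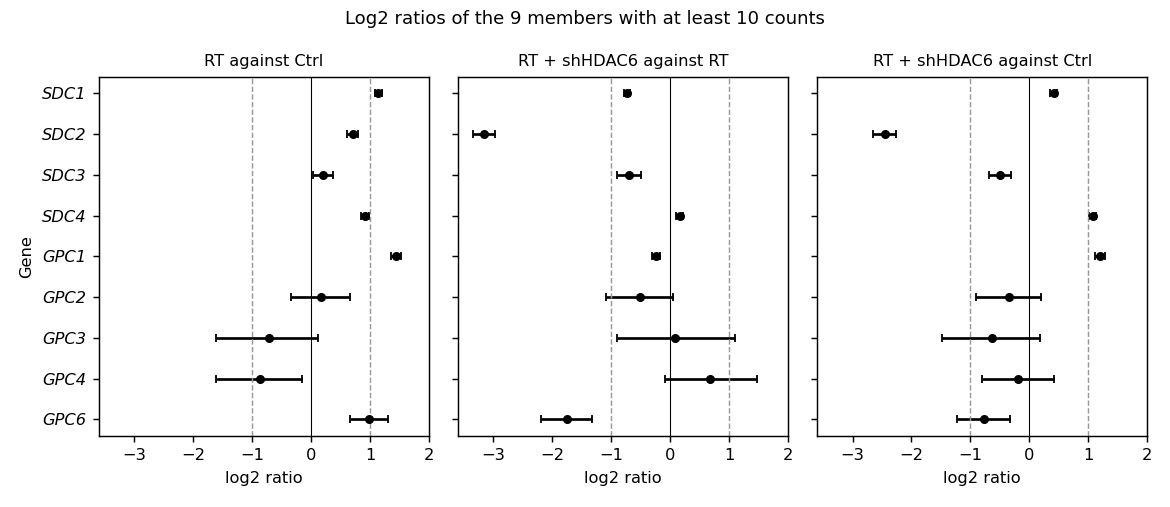
Log2 ratios of the 9 members with at least 10 counts, in 3 panels for the 3 comparisons, with 95% binomial intervals for counting error and dashed lines at 2-fold. SDC2 at -3.15 and GPC6 at -1.75 lie beyond the line for RT + shHDAC6 against RT, while the intervals of GPC2, GPC3 and GPC4 are wide in every panel.

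Irradiated knockdown cells were also set beside unirradiated control cells, a pair that differs in both factors. SDC4 and GPC1 were called higher in RT + shHDAC6 than in Ctrl (22.2% of 9 members, beside 4.91% of the 20374 genes compared), and SDC2 was called lower (11.1%, beside 10.5%). SDC4 was 2.11-fold higher, a log2 fold change of 1.07 (interval 1.01 to 1.14), and GPC1 2.30-fold higher, a log2 fold change of 1.20 (interval 1.11 to 1.29). SDC1 was closer to Ctrl at 0.41 (interval 0.35 to 0.47). SDC2 had a log2 fold change of -2.45 (interval -2.65 to -2.26), GPC6 of -0.77 (interval -1.23 to -0.33) and SDC3 of -0.50 (interval -0.69 to -0.30). GPC2, GPC3 and GPC4 had log2 ratios of -0.35, -0.63 and -0.19 with intervals that covered 0. The 3 comparisons share libraries, so their values are not independent of each other. With library totals SDC4 is no longer called, at a log2 fold change of 0.94.

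Summed over each family, both were most abundant in RT. The 4 syndecans held 10116, 14449 and 10625 counts in the 3 libraries, or 66.8, 131 and 99.7 CPM per kb when the levels of the members are added. The 6 glypicans held 1920, 3520 and 3017 counts, or 6.85, 16.3 and 13.5 per kb. Syndecans thus made up most of the transcript of both families in every library. The glypican sum was higher in RT than in Ctrl by 1.31 (interval 1.23 to 1.39) on the log2 scale and the syndecan sum by 0.95 (interval 0.91 to 0.99). For RT + shHDAC6 against RT the sums had -0.28 (interval -0.35 to -0.21) and -0.51 (interval -0.54 to -0.47).

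The make-up of the syndecan transcript differed mainly between the irradiated libraries. SDC4 held 34.7% of syndecan counts in Ctrl (interval 33.7 to 35.6), 33.9% in RT (33.1 to 34.6) and 53.7% in RT + shHDAC6 (52.7 to 54.6). SDC2 held 17.5% (16.8 to 18.3), 14.8% (14.2 to 15.4) and 2.36% (2.08 to 2.67). SDC1 held 41.7%, 47.7% and 40.8%, and SDC3 6.11%, 3.65% and 3.18%. The intervals of SDC4 in Ctrl and RT overlapped, while that of SDC2 was lowest by far in RT + shHDAC6. Per length, which removes the effect of unequal exon lengths, SDC4 made up 44.3%, 42.8% and 62.5% of the syndecan level and SDC2 14.3%, 11.98% and 1.76%. These shares do not depend on the scaling between libraries. The ratio of SDC4 to SDC1 per length was 1.15, 0.982 and 1.82 in the same order, and that of SDC2 to SDC1 was 0.372, 0.275 and 0.0512.

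The glypican transcript was dominated by GPC1 in all 3 libraries. GPC1 held 83.4% of glypican counts in Ctrl (interval 81.6 to 85.0), 91.3% in RT (90.4 to 92.2) and 94.3% in RT + shHDAC6 (93.4 to 95.1). GPC6 held 7.14% (6.02 to 8.38), 5.68% (4.94 to 6.50) and 2.06% (1.58 to 2.63). The GPC6 intervals of Ctrl and RT overlapped, and that of RT + shHDAC6 lay below both. GPC2, GPC3 and GPC4 each held between 2.08% and 3.96% in Ctrl and between 0.511% and 1.79% in the irradiated libraries. GPC5 held 0.365% in Ctrl, 0% in RT, with an upper limit of 0.105%, and 0.166% in RT + shHDAC6.

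**Figure D3:**
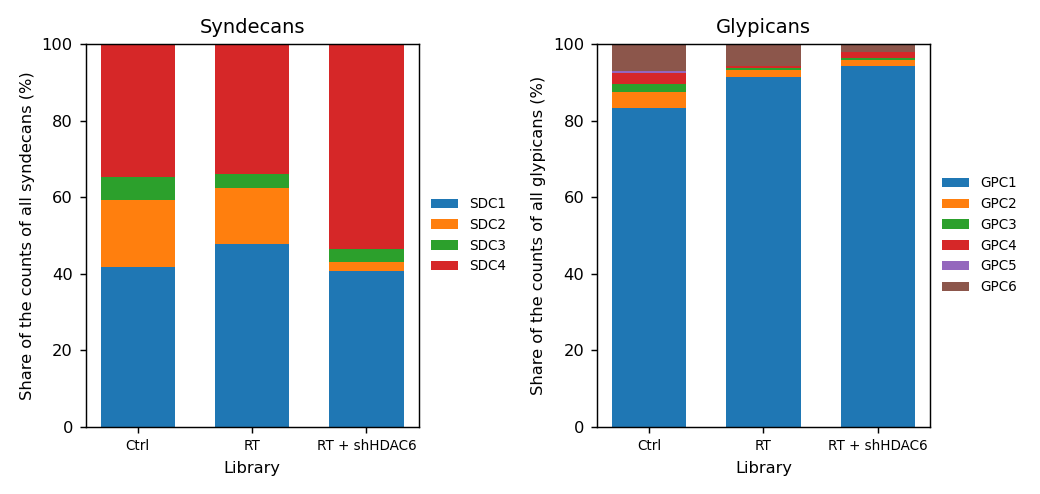
Share of each member in the counts of its family, in percent, as stacked bars with 1 bar per library, syndecans on the left and glypicans on the right. SDC4 held 33.9% in RT and 53.7% in RT + shHDAC6 while SDC2 held 14.8% and 2.36%, and GPC1 made up 83.4% to 94.3% of glypican counts.

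The genes that build, modify and use heparan sulfate were examined in 10 lists with 101 genes. For RT against Ctrl, 94 were compared, 16 were called higher and 6 lower, with a median log2 fold change of 0.15. For RT + shHDAC6 against RT, 91 were compared, 4 were called higher and 6 lower, with a median of -0.11. For RT + shHDAC6 against Ctrl, 7 of 94 were called higher and 8 lower, with a median of 0.01. Beside these counts stand all genes called in the first comparison (4.81% higher and 9.17% lower), the second (4.35% and 4.78%) and the last (4.91% and 10.5%). With library totals, RT against Ctrl turns to 8 higher and 10 lower, with a median of -0.063. The calls of UXS1, HS6ST1, CHST12, PCSK7, COL18A1, CD44, SRGN and CXCL8 as higher are then lost, and HS6ST3, SDCBP2, MDK and BMP4, named after their values were seen, become called lower. The median of RT + shHDAC6 against Ctrl also changes sign, to -0.12.

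Chain assembly starts with a linkage sugar chain on the core protein. Of the 7 linkage enzymes, 1 was called higher after irradiation and 1 lower with the shRNA, and both calls are PXYLP1, the phosphatase that removes a phosphate from the linkage xylose. The counts of PXYLP1 were 1272, 4021 and 779. Its log2 fold change was 2.10 (interval 2.00 to 2.19) in RT and, relative to RT, -2.43 (interval -2.54 to -2.32) with the shRNA. The medians of this list were 0.90 and -0.41. FAM20B, the kinase that adds that phosphate, had log2 ratios of 0.20 and -0.26, and XYLT2, which attaches the xylose, had 0.90 and -0.70. UXS1, which makes the UDP-xylose used in that step, had 2361, 3695 and 2859 counts. Its log2 fold change of 1.08 for RT against Ctrl was the only call among 7 precursor supply genes, SLC35B2 at 0.46 included. Of these 7, 4 were above 0 and 3 below in RT, between -0.62 and 1.08, with a median of 0.08. Of the 4 chain polymerase genes compared, EXT2 was called higher in RT, with 4893, 8601 and 6598 counts and a log2 fold change of 1.25 (interval 1.20 to 1.30). EXTL2, with 4983, 4101 and 3096 counts, was at 0.15. In RT + shHDAC6 all 4 were below RT, between -0.47 and -0.33, and none was 2-fold apart.

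Sulfation sets what a chain binds, and most calls among its enzymes fell on weakly counted genes. HS6ST1, a sulfotransferase, had 1286, 1912 and 1767 counts and a log2 fold change of 1.01 (interval 0.90 to 1.11) for RT against Ctrl, at the 2-fold line. NDST1, which replaces acetyl by sulfate groups, had 8927, 10545 and 9613 counts and a ratio of 0.68, and HS2ST1 had 0.65. Of the 13 sulfation and epimerisation genes compared, 1 was called higher and 2 lower in RT, and the 2 lower ones had fewer than 20 counts. For RT + shHDAC6 against RT, 1 of 10 was called higher and 2 lower, all with fewer than 23 counts in both libraries. HPSE, heparanase, which cuts the chains, had 536, 628 and 650 counts, and SULF2, a sulfatase that trims them outside the cell, had 419, 210 and 262. Their log2 ratios for RT against Ctrl were 0.66 (interval 0.50 to 0.83) and -0.56 (interval -0.81 to -0.32), and none of the 3 editing enzymes compared was called. SULF2 shares 3.54% of its exon length with NCOA3 on the opposite strand, which had 7181, 3466 and 2764 counts.

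Chondroitin sulfate can be built on syndecans from the same linkage. Of 12 chondroitin genes, 4 were called higher and 2 lower in RT. With the shRNA, 1 was called higher and 2 lower relative to RT. CHPF, a subunit of the chondroitin polymerase, had 3025, 6792 and 4050 counts, a log2 fold change of 1.60 after irradiation and -0.81 with the shRNA. CHSY3, another polymerase gene, had 156, 277 and 44 counts and ratios of 1.26 and -2.72. DSE, the epimerase that makes dermatan sulfate, had 2697, 2176 and 970 counts and ratios of 0.13 and -1.23. The sulfotransferase genes CHST3 and CHST12 had ratios of 1.44 and 1.17 for RT against Ctrl, whereas CHST15 had -1.10, and then 1.18 for RT + shHDAC6 against RT. CHPF2 had 0.91 for RT against Ctrl, and it shares 20.3% of its exon length with SMARCD3 on the opposite strand.

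Genes that process the core proteins or bind the syndecan tail were mostly within 2-fold. Of 11 processing genes, PCSK7, a proprotein convertase, was called higher in RT, with 4701, 7560 and 4863 counts and a log2 fold change of 1.12. It overlaps TAGLN and a further gene on the opposite strand over 10.1% and 17.7% of its exon length. The sheddase ADAM10 had 13147, 13028 and 11719 counts and FURIN 9459, 9209 and 7317, with log2 ratios of 0.42 and 0.40 for RT against Ctrl. In that comparison 6 of the 11 were above 0 and 5 below. NOTUM, named after its value was seen, was called lower in RT + shHDAC6 than in Ctrl. It had 17 and 52 counts there, a log2 ratio of -1.24 (interval -2.12 to -0.43). Of 9 cytoplasmic partners none was called in any comparison. Their medians were -0.02 after irradiation, which became 0.04 with median-of-ratios scaling, and 0.04 with the shRNA. After irradiation 4 were above 0 and 5 below, between -0.89 and 0.69. Of the most counted partners, the actin linkers, ACTN4 had 0.37 and -0.06 and EZR 0.69 and -0.18.

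Of 10 other proteoglycans that can carry heparan sulfate or related chains, 4 were called higher in RT. In all, 7 had a log2 ratio above 0 and 3 below, with a list median of 0.84. CD44, the hyaluronan receptor, had 42674, 64681 and 64753 counts, and log2 fold changes of 1.04 after irradiation and -0.06 with the shRNA. TGFBR3, betaglycan, had 3834, 6797 and 5970 counts and ratios of 1.26 and -0.25. COL18A1, a basement membrane collagen, had 19635, 29728 and 24582 counts and a ratio of 1.03 for RT against Ctrl, and 18.5% of its exon length lies opposite SLC19A1, which had 2146, 6502 and 5991 counts. SRGN, serglycin, an intracellular proteoglycan of secretory granules, had 5948, 10208 and 3326 counts. It was the 1 gene of this list called lower with the shRNA among irradiated cells, at -1.68 (interval -1.74 to -1.62), after 1.21 for RT against Ctrl.

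Among 18 heparan sulfate-binding ligands compared, 3 were called higher and 2 lower in RT, and 2 higher and 0 lower in RT + shHDAC6 against RT. FGF5 had 4551, 12339 and 8832 counts, log2 ratios of 1.87 and -0.54, and WNT5B had 2572, 6140 and 3635 counts, ratios of 1.69 and -0.82. CXCL8, the neutrophil chemokine, had 45, 73 and 154 counts and ratios of 1.13 and 1.01. HGF had 130, 42 and 93 counts, ratios of -1.19 and 1.08, and PDGFB had 257, 54 and 61 counts, ratios of -1.82 and 0.11. Against Ctrl, FGF1 (1.53), FGF5 (1.33), HBEGF (1.19), PDGFA (1.19) and CXCL8 (2.15) were called higher in RT + shHDAC6 and PDGFB (-1.70) lower. FN1, fibronectin, a matrix partner of syndecans, had 8302, 5285 and 5796 counts and stayed within 0.22 of RT or Ctrl on the log2 scale.

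Genes with a pattern nearest to that of a member were found over the 12684 genes with at least 100 counts, as the distance between their 2 log2 ratios, 1 for irradiation and 1 for the shRNA in irradiated cells. With 3 libraries many genes lie close to any common pattern. The nearest to SDC4 were EMC6 and SDR39U1, at distances of 0.0023 and 0.012, to GPC1 KDM4A-AS1 and DOLK, at 0.0095 and 0.029, and to SDC1 PCSK7 and MGST1, at 0.039 and 0.055. For GPC6 they were KCNJ4 and GLIPR1, at 0.059 and 0.11. SDC2 had the most isolated pattern of these 5 members. Its nearest gene was ABCB1, a drug efflux transporter, at 0.19 with 818, 878 and 110 counts.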

How the data were processed

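RNA-seq of T24 cells was compared between 3 libraries, 1 each for Ctrl, RT and RT + shHDAC6, grouped by their labels. The authors used cutadapt for trimming, STAR for alignment to GRCh38 (2.6.1a in the submitters' processing notes; the methods name another version) and featureCounts for counting on the genes of GENCODE release 28, and deposited raw counts. The strand setting and the treatment of multiply matching reads are not given in the sources used here, and the kit named differs between the labels and the methods, so reads of overlapping or antisense genes may be shared. No column was left unused. The methods give a range of doses, and the labels 10 Gy. The RT comparator is a vector control per the labels and parental in the study's results text. Of 58381 identifiers, 57799 matched GENCODE release 44, the source of symbols, positions and merged exon lengths.

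Counts were scaled by TMM (edgeR 4.0.16, R 4.3.3), with a count of 0 set to 0.5. The study used NOISeq, a tool that without replicates works from simulated ones. It was not run here, and a fixed 2-fold rule took its place. Clopper-Pearson and Poisson intervals came from scipy 1.17.1. The calculation was tested on simulated data. The median-of-ratios alternative used DESeq2 1.42.0. Without molecular identifiers, reads from the same molecule cannot be told apart, and the intervals and floors hold counting error alone.

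The members and lists were chosen with earlier results of these data known. Named genes are all members, HDAC6, the genes of each list with a 2-fold difference and 100 or more counts in the higher library, the 2 most counted genes of each list, and the 2 genes nearest in pattern to each member with a 2-fold difference and at least 100 counts. Some genes that this rule covers are not reported here. Promoters came from a RefSeq table that held 8 of the 10 members.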

Additional observations from a re-analysis of the deposited data

How the results depend on the processing

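No paired analysis was possible because each condition has 1 library, and for the same reason no library could be left out and no replicated count test could be run. Over the 3 other scalings, 68 of 81 log2 ratios of members stayed within the counting interval and 13 moved beyond it; the sign changed in 2, SDC3 and GPC2 for RT against Ctrl. Of 90 list medians, 40 stayed within 0.05 on the log2 scale, 50 moved further and 10 changed sign. With library totals, for RT against Ctrl, these were precursor supply (0.076 to -0.14), core protein processing (0.098 to -0.12) and ligands (0.017 to -0.20, and -0.039 under upper quartile scaling). In the knockdown library they were core protein processing against RT (-0.062 to 0.022), and against Ctrl that list (0.0026 to -0.13, and -0.026 with upper quartile scaling) and the chondroitin enzymes (0.050 to -0.084). With median-of-ratios scaling they were cytoplasmic partners in RT (-0.020 to 0.039) and ligands in RT + shHDAC6 against Ctrl (-0.038 to 0.011). With library totals, which shift all ratios by -0.22, 0.084 and -0.13 in the 3 comparisons, 1 member (GPC1) was higher and 1 (GPC4) lower in RT than in Ctrl, and 1 (GPC1) was higher in RT + shHDAC6 than in Ctrl. Without a count filter, GPC5 (0 counts in RT) was added, as 1 lower member in RT and 1 higher member in RT + shHDAC6 against RT. At 1.5-fold, 7 members differed between RT and Ctrl, 5 higher (SDC1, SDC2, SDC4, GPC1 and GPC6) and 2 lower (GPC3 and GPC4). In RT + shHDAC6 against RT, 5 differed, 1 higher (GPC4) and 4 lower (SDC1, SDC2, SDC3 and GPC6), and against Ctrl 5 differed, of which 3 were lower (SDC2, GPC3 and GPC6). Median-of-ratios scaling added GPC6 as higher in RT, for 3 members. Setting zeros to 1 changed no count. Ordering shares per kb rather than by counts kept 18 of 30 places, as its construction with exon length implies, and the longest transcript in place of merged exons kept 26 of 30.

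Over all genes, RT against Ctrl gave 975 higher and 1858 lower calls, and 523 and 2845 with library totals, which moved the higher share of these calls from 34.4% to 15.5%. It gave 4036 and 5149 without a filter, 537 and 278 with at least 100 counts, and 2938 and 4156 at 1.5-fold. RT + shHDAC6 against RT gave 828 and 909, then 3032 and 5179, 120 and 259, and 1917 and 1888 under those 3 settings, and against Ctrl 1001 and 2134, then 4157 and 5309, 452 and 562, and 2830 and 4182. Depth limits GPC2, GPC3, GPC4 and GPC5, with at most 76 counts each.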
